A study of Mus musculus with 15 samples.

Results

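The unfolded protein response and the integrated stress response were followed through 9 transcripts in mouse cerebellum. The genes were Hspa5, Herpud1, Xbp1, Atf4, Ddit3, Atf3, Trib3, Asns and Chac1, taken by symbol from the gene count tables, which list 24421 genes. All 9 passed the filter on low counts, as did 15843 genes in all. The mice were of the FVB strain and of 3 genotypes, with 5 libraries each: wild type, Pcp2-ATXN1[82Q], and Pcp2-ATXN1[82Q]V591A;S602D. Both transgenes carry human ATXN1 with the expanded glutamine tract that causes spinocerebellar ataxia type 1, and the Pcp2 promoter drives them in Purkinje cells. The V591A and S602D substitutions lie in the domain of ATXN1 that binds the transcriptional repressor CIC and weaken that binding. The series asks how the ATXN1-CIC complex contributes to the disease. The labels give neither the age nor the sex of the mice and do not tie each library to an animal of its own. The p-values thus speak of the spread among libraries, part of which may be technical. Groups are called wild type, ATXN1[82Q] and, for the transgene with both substitutions, ATXN1[82Q]V591A;S602D or the substituted genotype.

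When unfolded proteins gather in the endoplasmic reticulum (ER), 3 sensors in its membrane respond: PERK (Eif2ak3), IRE1 (Ern1) and ATF6. IRE1 splices the Xbp1 mRNA, and XBP1 and ATF6 raise the genes of ER chaperones such as Hspa5 (BiP) and of ER-associated degradation such as Herpud1. PERK and the other eIF2 kinases form the integrated stress response: they lower translation in general but favour translation of the Atf4 mRNA, and ATF4 then raises Ddit3 (CHOP), Atf3, Trib3, Asns and Chac1. Gene counts register neither the splicing of Xbp1 nor the translation of Atf4. In bulk tissue, fewer cells of a type and less RNA per cell cannot be told apart.

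The promoter windows below are shown because they carry the elements by which these genes are usually grouped. They come from RefSeq, build GRCm38.p6, where all 9 genes had 1 window each, and run from 250 bases before to 50 bases after the transcript start, 5′ to 3′ on the strand of the gene. Both strands were searched, and capitals mark a match. The Hspa5 window (chr2:34771840-34772139, plus strand) is shown for the ER stress element, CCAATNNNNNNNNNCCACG, at positions -65 to -47. The Herpud1 window (chr8:94386179-94386478, plus strand) is shown for the short ER stress element II, ATTGG and CCACG with 1 base of any kind between them, at -52 to -42 and for the C/EBP-ATF element, TGATGNAA, in reverse at -112 to -105. The Atf3 window (chr1:191183284-191183583, minus strand) and the Trib3 window (chr2:152344011-152344310, minus strand) are shown for the C/EBP-ATF element, in reverse at -110 to -103 and at 15 to 22. The Xbp1 window (chr11:5520391-5520690, plus strand) is shown because Xbp1 varied most closely with Hspa5, while it holds none of the motifs searched.
Hspa5: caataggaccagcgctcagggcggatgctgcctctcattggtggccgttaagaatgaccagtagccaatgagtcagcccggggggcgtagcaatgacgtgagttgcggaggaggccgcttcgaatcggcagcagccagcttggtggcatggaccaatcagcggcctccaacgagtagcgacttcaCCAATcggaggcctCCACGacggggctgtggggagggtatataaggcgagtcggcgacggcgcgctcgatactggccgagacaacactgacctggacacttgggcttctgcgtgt
Herpud1: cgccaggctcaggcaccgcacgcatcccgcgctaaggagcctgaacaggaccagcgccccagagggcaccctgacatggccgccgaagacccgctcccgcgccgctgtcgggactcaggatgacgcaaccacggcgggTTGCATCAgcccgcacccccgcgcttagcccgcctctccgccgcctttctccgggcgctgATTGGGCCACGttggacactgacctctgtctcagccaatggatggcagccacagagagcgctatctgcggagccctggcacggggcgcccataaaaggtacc
Xbp1: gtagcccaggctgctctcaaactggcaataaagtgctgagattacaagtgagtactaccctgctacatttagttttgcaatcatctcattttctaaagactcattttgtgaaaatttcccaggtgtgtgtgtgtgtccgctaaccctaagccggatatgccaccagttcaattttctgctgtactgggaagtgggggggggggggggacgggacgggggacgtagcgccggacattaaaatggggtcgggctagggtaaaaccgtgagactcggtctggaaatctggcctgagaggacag
Atf3: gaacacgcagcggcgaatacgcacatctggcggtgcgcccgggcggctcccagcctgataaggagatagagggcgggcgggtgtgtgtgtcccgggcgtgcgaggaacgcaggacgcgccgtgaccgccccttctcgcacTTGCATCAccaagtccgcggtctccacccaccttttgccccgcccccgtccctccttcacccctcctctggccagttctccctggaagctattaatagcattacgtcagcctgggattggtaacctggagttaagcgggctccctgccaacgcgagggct
Trib3: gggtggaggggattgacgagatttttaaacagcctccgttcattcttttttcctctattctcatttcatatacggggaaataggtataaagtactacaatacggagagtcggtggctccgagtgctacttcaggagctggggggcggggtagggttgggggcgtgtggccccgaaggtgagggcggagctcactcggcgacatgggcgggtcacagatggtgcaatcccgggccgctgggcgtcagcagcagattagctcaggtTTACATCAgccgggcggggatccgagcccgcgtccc

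The ER stress element was found in 0.119% of the 32851 promoter windows of the same length and in 1 of the 9 genes, Hspa5. ER stress element II was found in 0.0365% of windows and in 1 of the 9, Herpud1. Its letters do not overlap those of the C/EBP-ATF element there. The C/EBP-ATF element was found in 3.97% of windows and in 5 of the 9: Atf3, Herpud1, Trib3, Asns and Chac1. The cAMP response element, TGACGTCA (1.79% of windows), and the CIC octamers, TGAATGAA (1.3%) and TGAATGGA (1.21%), were in 0 of the 9 windows. A match describes letters only, and its absence says only that these letters are not in this window.

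Reads counted on genes ranged from 38067915 to 40640811 in wild-type libraries, from 36467948 to 42818401 in ATXN1[82Q] libraries and from 38468429 to 41480492 in ATXN1[82Q]V591A;S602D libraries. Levels are given in CPM, the count scaled by the TMM-adjusted total of the library. Ttr, which marks choroid plexus, was over 1000 CPM in 8 libraries and under 100 CPM in 7 (3 of them wild-type, 2 from ATXN1[82Q] and 2 from the substituted genotype). Xist, which is expressed in female cells, was over 1000 CPM in 2 libraries of each genotype and at most 0.878 CPM in the others. Each genotype thus held libraries of both sexes. The summed CPM of the 10 Purkinje cell markers spanned 8166 to 9331 over wild-type libraries, 2893 to 3541 over ATXN1[82Q] libraries and 5751 to 7935 over substituted libraries, and the 10 microglia markers to 151 to 176, 273 to 306 and 161 to 189. All 10 Purkinje cell markers fell and all 10 microglia markers rose in ATXN1[82Q] against wild type, while 6 Purkinje cell markers fell and 0 microglia markers passed in the substituted genotype. The part of these cell types in the results was not tested.

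Compared per kilobase of exon, the 9 transcripts kept the same order in all 3 genotypes. In wild type, Hspa5 led at 88.8 ± 13.8 CPM per kb (SD, n = 5), followed by Atf4 at 70.4 ± 1.70, Xbp1 at 45.5 ± 7.58, Herpud1 at 37.2 ± 2.30, Asns at 29.3 ± 0.489 and Ddit3 at 16.6 ± 0.731. Chac1 (1.18 to 1.67 over the 5 libraries), Atf3 (0.55 to 1.20) and Trib3 (0.291 to 0.508) were far lower. In wild type and in ATXN1[82Q], the ranges of Hspa5 and Atf4, of Xbp1 and Herpud1, and of Chac1 and Atf3 overlapped. Whether these neighbours differed was not tested. In the substituted genotype no neighbours overlapped.

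The 9 genes did not move as a block in any comparison. In ATXN1[82Q] against wild type, Atf3 rose and Atf4 fell slightly, and the other 7 did not pass the test (edgeR quasi-likelihood test, Benjamini-Hochberg adjusted p under 0.05 over all genes tested). These 2 of 9 stand against a background of 31.5% of all tested genes called, and 0 of the 9 had groups that did not overlap, against 19.2% of all (9.36% higher and 9.79% lower). In ATXN1[82Q]V591A;S602D against wild type, 1 of 9 passed, Atf4, which was lower, against 1.41% of all genes. Its groups did not overlap, as in 3.16% of all (1.13% higher and 2.03% lower). In ATXN1[82Q] against ATXN1[82Q]V591A;S602D, Hspa5 and Herpud1 were lower and Trib3 higher, 3 of 9 against 28.1% of all, and the groups of Herpud1 did not overlap, as in 17.9% of all (8.28% higher and 9.61% lower). The counts in the comparisons that involve ATXN1[82Q] are thus near the background. The median log2 fold changes of the 9 were -0.064, 0.080 and 0.021, beside 0.0068, 0.0059 and 0.0057 over all genes tested, and the 3 comparisons share libraries pairwise.

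**Figure D1:**
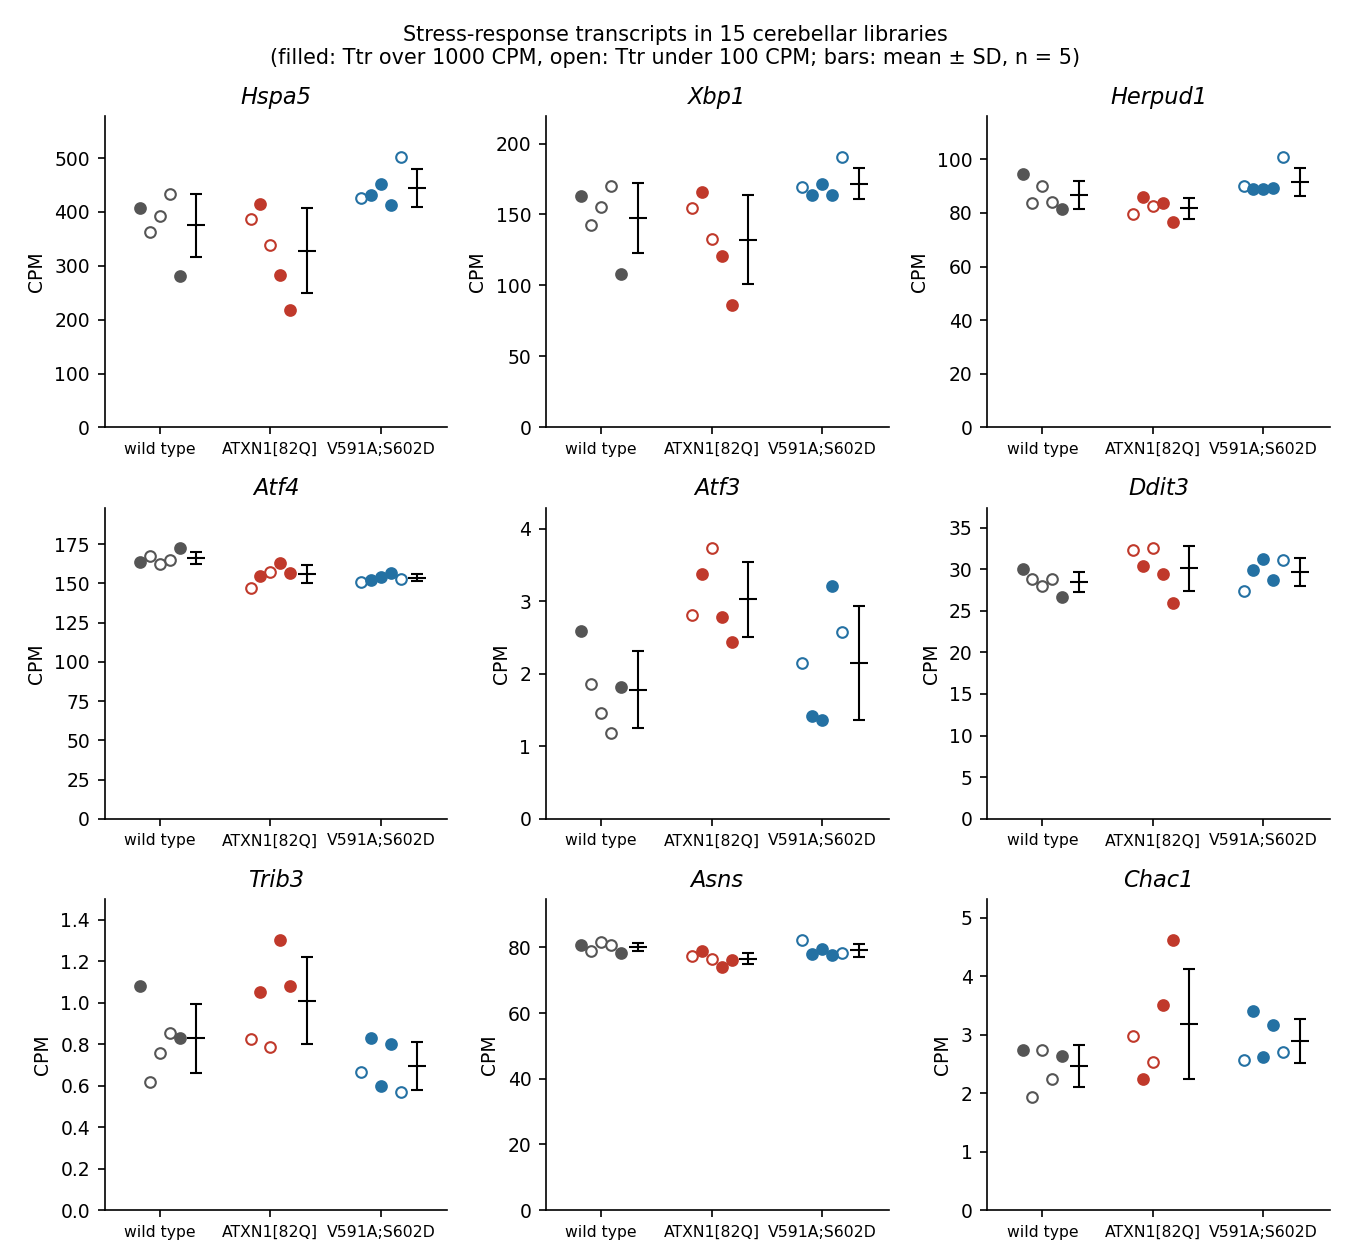
CPM of the 9 transcripts (y axis) in each library of the 3 genotypes (x axis); filled points are libraries with Ttr over 1000 CPM, open points those under 100 CPM, and bars are mean ± SD (n = 5). Hspa5 and Xbp1 spread widely within wild type and ATXN1[82Q] and little within ATXN1[82Q]V591A;S602D, while Atf4 lay near 166 CPM in wild type and near 155.7 and 153.5 CPM in the transgenic genotypes.

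Hspa5 encodes BiP, the main ER chaperone of the HSP70 family, at 2:34771970-34777547 on the plus strand (GRCm38). Its levels in wild-type replicates 1 to 5 were 407.5, 362.9, 392.7, 432.4 and 281.5 CPM, those in ATXN1[82Q] were 386.3, 413.8, 337.8, 283.3 and 218.8, and those in the substituted genotype were 426.5, 431.7, 452.6, 412.1 and 502.2. Wild-type replicate 5 and ATXN1[82Q] replicates 4 and 5 were low, and the highest ATXN1[82Q] library just reached the lowest substituted library. Hspa5 was 1.36-fold lower in ATXN1[82Q] than in the substituted genotype (log2 -0.44, SE 0.14, edgeR adjusted p = 0.0263). The call was lost without ATXN1[82Q] replicate 4 (edgeR adjusted p = 0.0669) or 5 (0.0552), and without substituted replicate 3 (0.0506) or 5 (0.0662). Among libraries with Ttr under 100 CPM, the ATXN1[82Q] values were 337.8 and 386.3 and the substituted values 426.5 and 502.2 (adjusted p = 0.0559). Against wild type, neither transgene passed: the log2 differences were -0.19 (95% interval -0.49 to 0.099) for ATXN1[82Q] and 0.25 (-0.048 to 0.54) for the substituted genotype.

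Xbp1 encodes the transcription factor of the IRE1 arm, at 11:5520659-5525893 on the plus strand, and followed the same pattern. Its wild-type levels were 163.3, 142.3, 155, 170.4 and 107.9 CPM, those in ATXN1[82Q] 154.8, 166.1, 133, 121 and 85.9, and those in the substituted genotype 169.2, 164, 171.2, 163.8 and 190.6. The same 3 libraries were low as for Hspa5, and the groups overlapped. The difference between ATXN1[82Q] and the substituted genotype was -0.38 on the log2 scale (95% interval -0.67 to -0.084) and just missed the threshold (edgeR adjusted p = 0.0516). It passed without ATXN1[82Q] replicate 1 or 2 (0.0345 and 0.0190), with DESeq2 (0.0498), with only these 2 genotypes in the fit (0.0490), and with Ttr (0.0289), Xist (0.0320) or the replicate number (0.0336) in the model. These were 2 of the 10 fits with a library left out and 5 of the 8 other settings. In the rest it did not pass, with adjusted p up to 0.113 and 0.0571. Against wild type the log2 differences were -0.16 (-0.46 to 0.13) for ATXN1[82Q] and 0.22 for the substituted genotype (adjusted p = 0.406 and 0.582).

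Herpud1 encodes an ER membrane protein of the degradation machinery, at 8:94386438-94395377 on the plus strand. It stood at 94.5, 83.6, 89.8, 84.0 and 81.4 CPM in the wild-type libraries, at 79.5, 86.1, 82.5, 83.8 and 76.5 in ATXN1[82Q], and at 90.1, 89.1, 88.9, 89.1 and 100.9 in the substituted genotype. In CPM, every ATXN1[82Q] library lay below every substituted library, and so necessarily within each Ttr group. The values were 79.5 and 82.5 against 90.1 and 100.9 under 100 CPM, and 76.5 to 86.1 against 88.9 to 89.1 over 1000 CPM. This separation depends on the scaling. The lowest TMM factor among ATXN1[82Q] libraries (1.022, replicate 2) exceeded the highest substituted factor (1.003, replicate 4). On unadjusted totals the groups overlapped: ATXN1[82Q] replicate 2 (3520 of 40027900 reads) lay above substituted replicate 3 (3403 of 39079070). Herpud1 was 1.12-fold lower in ATXN1[82Q] than in the substituted genotype (log2 -0.17, SE 0.047, edgeR adjusted p = 0.0144). This call held in each alternative analysis that was run, with adjusted p up to 0.0456, but none of these used unadjusted totals. Against wild type the log2 differences were -0.086 and 0.080, and neither passed (adjusted p = 0.177 and 0.545).

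Hspa5 and Xbp1 varied together from library to library within every genotype. Over the 15 libraries, their deviations from the mean of their genotype correlated with Pearson's r = 0.99 (permutation p = 1e-05, the smallest that 100000 permutations within genotypes can give) and Spearman's rho = 0.986 (permutation p = 2e-05). Over the 36 pairs of the 9 genes, the adjusted values were 0.00036 and 0.00072, and this was the 1 pair that passed by both measures. Without the 2 libraries farthest from the median of Hspa5, r was 0.979. Within the 7 libraries with Ttr under 100 CPM r was 0.983, and within the 8 over 1000 CPM it was 0.99. The points share their libraries and thus their depth.

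Of all 15843 genes tested, Xbp1 was the nearest to Hspa5, and Hspa5 the nearest to Xbp1, by the root mean square difference of z-scored log2 CPM over the 15 libraries (0.131). Sdf2l1, a subunit of an ER chaperone complex, and Manf, a secreted factor of ER stress, came next for Hspa5 (0.202 and 0.212) and for Xbp1 (0.232 and 0.234). Sdf2l1 stood at 12.8, 10.8, 12.6, 15.4 and 6.95 CPM in the wild-type libraries, at 11.6, 13.3, 8.92, 8.44 and 5.30 in ATXN1[82Q], and at 12.6, 15.2, 17.5, 14.2 and 18.6 in the substituted genotype. Manf spanned 47.5 to 73.1 CPM in the wild-type libraries, 41.0 to 71.8 in ATXN1[82Q] and 67.8 to 84.4 in the substituted genotype. In wild type and in ATXN1[82Q], replicate 5 was the lowest library for all 4 genes, and substituted replicate 5 was the highest of its genotype. Both low libraries held Ttr over 1000 CPM and the high one under 100 CPM. The other way, ATXN1[82Q] replicate 2 was the highest of its genotype for all 4 genes and held Ttr at 3248 CPM. ATXN1[82Q] replicate 5 also had the highest sums of the brainstem neuron markers (13.47 CPM) and of the choroid plexus markers (7708 CPM). The next highest brainstem sum was 3.914 CPM, in ATXN1[82Q] replicate 2. Wild-type replicate 5 had sums of 1.158 and 6221 CPM. Whether the 4 genes vary with Ttr or with these markers was not tested.

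**Figure D2:**
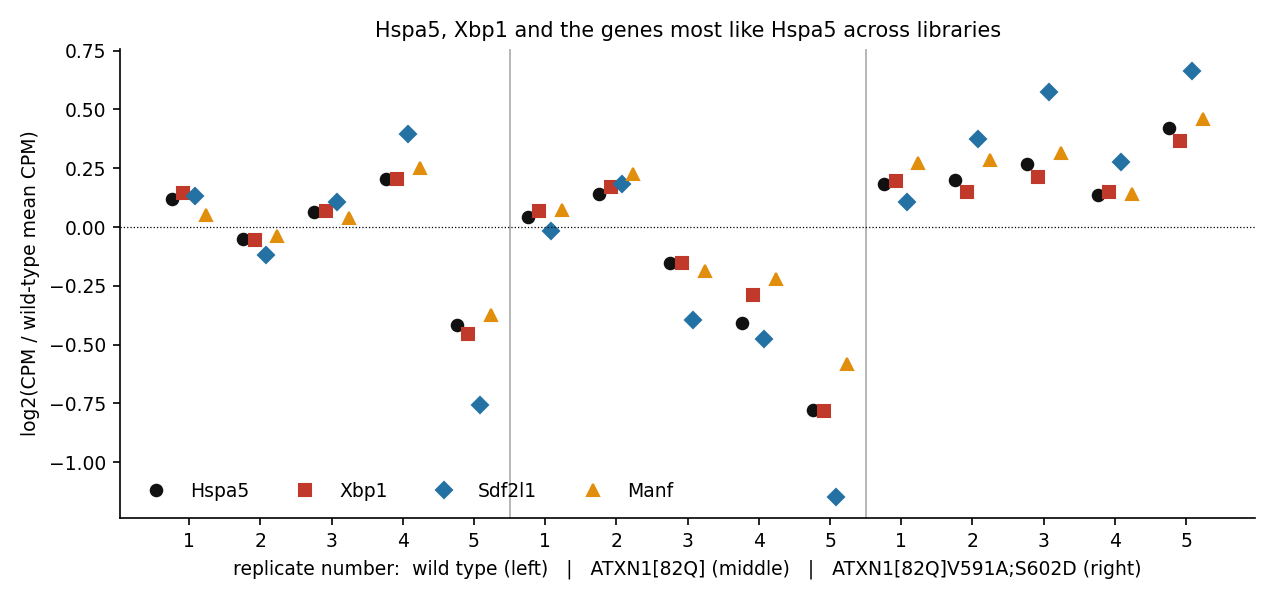
Levels of Hspa5, Xbp1, Sdf2l1 and Manf as log2(CPM / wild-type mean CPM) (y axis) in each library, by replicate number within the 3 genotypes (x axis). The 4 genes move together in each genotype, and Sdf2l1 has the widest range, from 5.30 to 18.6 CPM.

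Atf4 encodes the central transcription factor of the integrated stress response, at 15:80255184-80257541 on the plus strand, and was slightly lower with both transgenes. It stood at 163.7, 167.3, 162, 165 and 172.3 CPM in the wild-type libraries, at 147.2, 154.6, 157.2, 163.1 and 156.4 in ATXN1[82Q], and at 151.1, 152.4, 154.3, 156.8 and 152.9 in the substituted genotype. Only ATXN1[82Q] replicate 4 reached the range of the wild type, and no substituted library did. Atf4 fell by 6.23% in ATXN1[82Q] (log2 -0.093, SE 0.027, edgeR adjusted p = 0.0151), and it fell by 7.57% in the substituted genotype (log2 -0.11, SE 0.027, edgeR adjusted p = 0.0455). The lowest TMM factor among ATXN1[82Q] libraries (1.022, replicate 2) exceeded the highest wild-type factor (0.9945, replicate 5). Dividing by these factors lowers ATXN1[82Q] levels beside wild type, so the size of so small a fall depends on the scaling. RLE scaling, which also adjusts the totals, gave a log2 difference of -0.096, and a fit on unadjusted totals was not run. On unadjusted totals the groups overlapped widely. There ATXN1[82Q] replicates 2 (6319 of 40027900 reads), 3, 4 and 5 all lay above wild-type replicate 3 (5980 of 38155132). Factors of the substituted genotype overlapped those of wild type. The ATXN1[82Q] call held when any single library was left out, and was lost among the libraries with Ttr under 100 CPM (adjusted p = 0.0627). The call in the substituted genotype was lost whenever any single library was left out, with adjusted p from 0.0539 to 0.130. The transgenic genotypes differed from each other by 0.021 on the log2 scale, which did not pass (adjusted p = 0.604).

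Atf3 encodes a stress-induced bZIP factor, at 1:191170296-191218039 on the minus strand, and was the member with the highest fold change in ATXN1[82Q]. It stood at 2.59, 1.85, 1.46, 1.18 and 1.81 CPM in the wild-type libraries, at 2.82, 3.38, 3.73, 2.78 and 2.44 in ATXN1[82Q], and at 2.15, 1.41, 1.36, 3.21 and 2.57 in the substituted genotype. Wild-type replicate 1 lay above the lowest ATXN1[82Q] library, and substituted replicates 4 and 5 lay within the range of ATXN1[82Q]. Atf3 rose 1.70-fold in ATXN1[82Q] against wild type (log2 0.76, SE 0.23, edgeR adjusted p = 0.0197). The call was lost without wild-type replicate 3 (0.0538) or 4 (0.0547). In libraries with Ttr under 100 CPM, wild type spanned 1.18 to 1.85 and ATXN1[82Q] 2.82 to 3.73 CPM. The differences of the substituted genotype from wild type (log2 0.26, adjusted p = 0.718) and of ATXN1[82Q] from it (log2 0.50, 95% interval 0.011 to 0.99, adjusted p = 0.116) did not pass, though the latter passed without substituted replicate 4 (0.0309). Its counts were 47 to 156 reads a library, where counting alone gives a coefficient of variation of at least 8.96% in each genotype.

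Ddit3 encodes CHOP, a factor linked to cell death under lasting stress, at 10:127290774-127296288 on the plus strand. It averaged 28.5 ± 1.25 CPM in the wild-type libraries, 30.1 ± 2.67 in ATXN1[82Q] and 29.7 ± 1.66 in the substituted genotype (SD, n = 5), and the groups overlapped. No comparison passed, and the log2 difference of ATXN1[82Q] from wild type lay between -0.045 and 0.21 (95% interval). Of its exon length, 4.73% overlaps exons of Mars or Gm4189 on the other strand, and the strand setting of the counting is unknown, so how reads there were assigned is not known either.

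Trib3 encodes a pseudokinase that ATF4 and CHOP induce and that dampens their activity, at 2:152337422-152344032 on the minus strand. Its levels were 1.08, 0.618, 0.758, 0.857 and 0.831 CPM in wild type, 0.823, 1.05, 0.789, 1.30 and 1.08 in ATXN1[82Q], and 0.668, 0.829, 0.601, 0.803 and 0.571 in the substituted genotype. The ATXN1[82Q] and substituted ranges overlapped by a narrow margin. Trib3 was 1.45-fold higher in ATXN1[82Q] than in the substituted genotype (log2 0.54, SE 0.19, edgeR adjusted p = 0.0461). It had 22 to 54 reads a library, with a counting coefficient of variation of 15.5% to 19.1%. The call was lost without ATXN1[82Q] replicate 2, 4 or 5 or substituted replicate 1, 3 or 5, with adjusted p up to 0.127, with DESeq2 (0.0642), without a count filter (0.0619), with only these 2 genotypes in the fit (0.0563), with Xist (0.0512) or the replicate number (0.0639) in the model, and among libraries with Ttr under 100 CPM (0.468). Against wild type the log2 differences were 0.28 and -0.26, and neither passed (adjusted p = 0.275 and 0.664).

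Chac1 encodes an enzyme that degrades glutathione, at 2:119351229-119354381 on the plus strand. It stood at 2.74, 1.93, 2.74, 2.24 and 2.64 CPM in the wild-type libraries, at 2.98, 2.25, 2.53, 3.51 and 4.62 in ATXN1[82Q], and at 2.57, 3.41, 2.61, 3.16 and 2.70 in the substituted genotype. ATXN1[82Q] replicate 5 was the highest library and the groups overlapped. The log2 difference of ATXN1[82Q] from wild type was 0.37 (95% interval 0.008 to 0.73) and did not pass (edgeR adjusted p = 0.112). It was 0.47 and passed without ATXN1[82Q] replicate 2 (0.0412), while it was 0.20 without ATXN1[82Q] replicate 5 (0.358) and 0.25 among libraries with Ttr under 100 CPM (0.375). Asns, the asparagine synthetase gene at 6:7675169-7693254 on the minus strand, averaged 80.1 ± 1.34 CPM in the wild-type libraries, 76.6 ± 1.77 in ATXN1[82Q] and 79.1 ± 1.97 in the substituted genotype (SD, n = 5). Its log2 difference in ATXN1[82Q] against wild type was -0.064 (95% interval -0.12 to -0.0071, adjusted p = 0.0803).

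**Figure D3:**
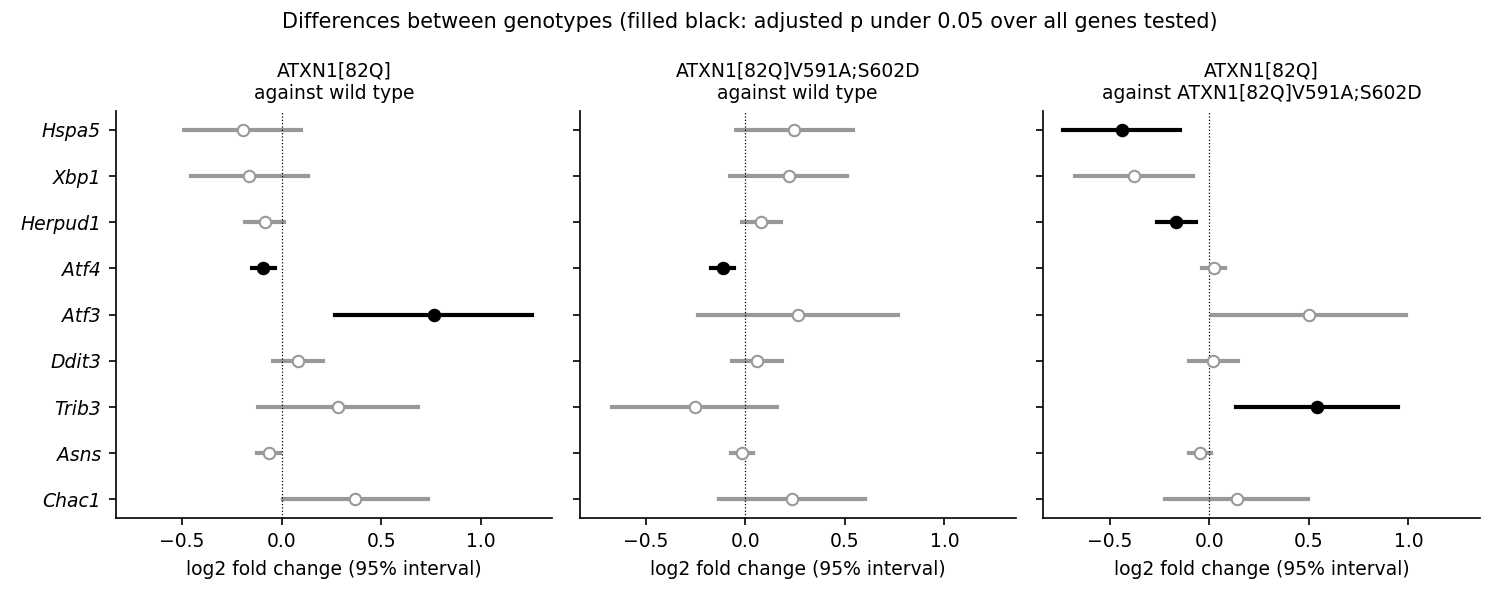
Log2 fold changes (x axis) of the 9 transcripts (y axis) in the 3 comparisons, with 95% intervals; black marks have an adjusted p under 0.05 and grey marks do not. Atf3 (0.76) and Atf4 (-0.093) stand out from 0 in ATXN1[82Q] against wild type, and Hspa5 (-0.44), Herpud1 (-0.17) and Trib3 (0.54) in ATXN1[82Q] against ATXN1[82Q]V591A;S602D.

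The other genes of the pathway were followed in 8 lists with 123 genes, of which 120 were tested. In ATXN1[82Q] against wild type 23 were higher and 11 lower (edgeR, adjusted p under 0.05), beside 16.6% and 14.9% of all genes. In ATXN1[82Q]V591A;S602D against wild type 2 were higher and 0 lower, beside 0.208% and 1.2% of all. At p under 0.05 before adjustment these counts were 11 and 8, beside 5.45% and 6.28% of all genes, and DESeq2 called 3 and 0, beside 0.644% and 1.96% of all. In ATXN1[82Q] against ATXN1[82Q]V591A;S602D 22 were higher and 21 lower, beside 13.5% and 14.6% of all.

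Among 13 stress sensors and eIF2 kinases, 2 rose and 2 fell in ATXN1[82Q] against wild type, a share near the 31.5% of all genes called. Eif2ak3, which encodes PERK, rose from 55 ± 2.19 to 71.5 ± 2.67 CPM (log2 0.38, edgeR adjusted p = 1.01e-05), and it was also higher than in the substituted genotype (log2 0.22, adjusted p = 0.00237). Eif2ak2, the kinase PKR that senses double-stranded RNA, rose by 0.40 on the log2 scale (adjusted p = 0.00195). Atf6 was lower than in wild type (log2 -0.11, adjusted p = 0.0331) and than in the substituted genotype (-0.15, 0.0092), as was Eif2ak1, the haem-regulated kinase, against wild type (-0.10, 0.0277). Ern1, which encodes IRE1, had a log2 difference of -0.085 from wild type (adjusted p = 0.404). Among 11 genes of the translation arm, 0 rose and 3 fell, beside 16.6% and 14.9% of all genes: Nck1, an adaptor (-0.29), Eif2s1, the eIF2 alpha subunit that the kinases phosphorylate (-0.15), and Eif2b5, a subunit of its exchange factor (-0.12). The phosphatase subunits Ppp1r15a (0.0051) and Ppp1r15b (-0.047) did not pass (adjusted p = 0.974 and 0.437).

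Of the 21 ER chaperones and folding enzymes, 1 was higher and 0 lower in ATXN1[82Q] against wild type, beside 16.6% and 14.9% of all genes. It was the disulfide isomerase P4hb (log2 0.12, edgeR adjusted p = 0.0205). In ATXN1[82Q]V591A;S602D against wild type 0 were higher and 0 lower, beside 0.208% and 1.2% of all genes. At p under 0.05 before adjustment 4 were higher and 0 lower there, beside 5.45% and 6.28% of all. The list's median log2 differences were -0.076 and 0.11, beside 0.0068 and 0.0059 over all genes. Between the transgenic genotypes, 11 were lower in ATXN1[82Q] and 0 higher, beside 14.6% and 13.5% of all genes, with a median of -0.19 beside 0.0057 over all. The 11 included Sdf2l1 (-0.72, adjusted p = 0.0186), Manf (-0.41, 0.0199), and, chosen after their values were seen, the lectin chaperone Calr (-0.33), the HSP90 paralogue Hsp90b1 (-0.32) and the BiP exchange factor Hyou1 (-0.33). This count changed when single libraries were left out. It was 5 without substituted replicate 2 or 3 and 4 without substituted replicate 5. Without ATXN1[82Q] replicates 3, 4 and 5 it was 6, 5 and 4. In these fits 11.5% to 13.7% of all genes were called lower. The count was 1 among libraries with Ttr under 100 CPM, where 5.7% of all genes were called lower. The choroid plexus markers summed to 335 to 7708 CPM in ATXN1[82Q] and 294 to 5770 in the substituted genotype, with a median log2 difference of 0.54. Of these 9 markers 0 passed, but with so wide a spread within genotypes the test cannot show that they were alike. In the same comparison 8 of 8 granule cell markers and 10 of 10 Purkinje cell markers were lower in ATXN1[82Q]. There 8 of 8 oligodendrocyte and 10 of 10 microglia markers were higher. The granule cell markers summed to 5355 to 5748 CPM in ATXN1[82Q] and 6617 to 7479 in the substituted genotype, with a median log2 difference of -0.28, and the oligodendrocyte markers to 7347 to 9255 and 6004 to 6663. The part of these cell types in the chaperone counts was not tested. Of 14 genes of ER-associated degradation, 1 rose and 2 fell in ATXN1[82Q] against wild type, beside 16.6% and 14.9% of all genes: Edem2 (0.15), Ube2j1 (-0.19) and Edem3 (-0.13). Between the transgenic genotypes, 5 were lower and 0 higher, beside 14.6% and 13.5% of all genes.

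**Figure D4:**
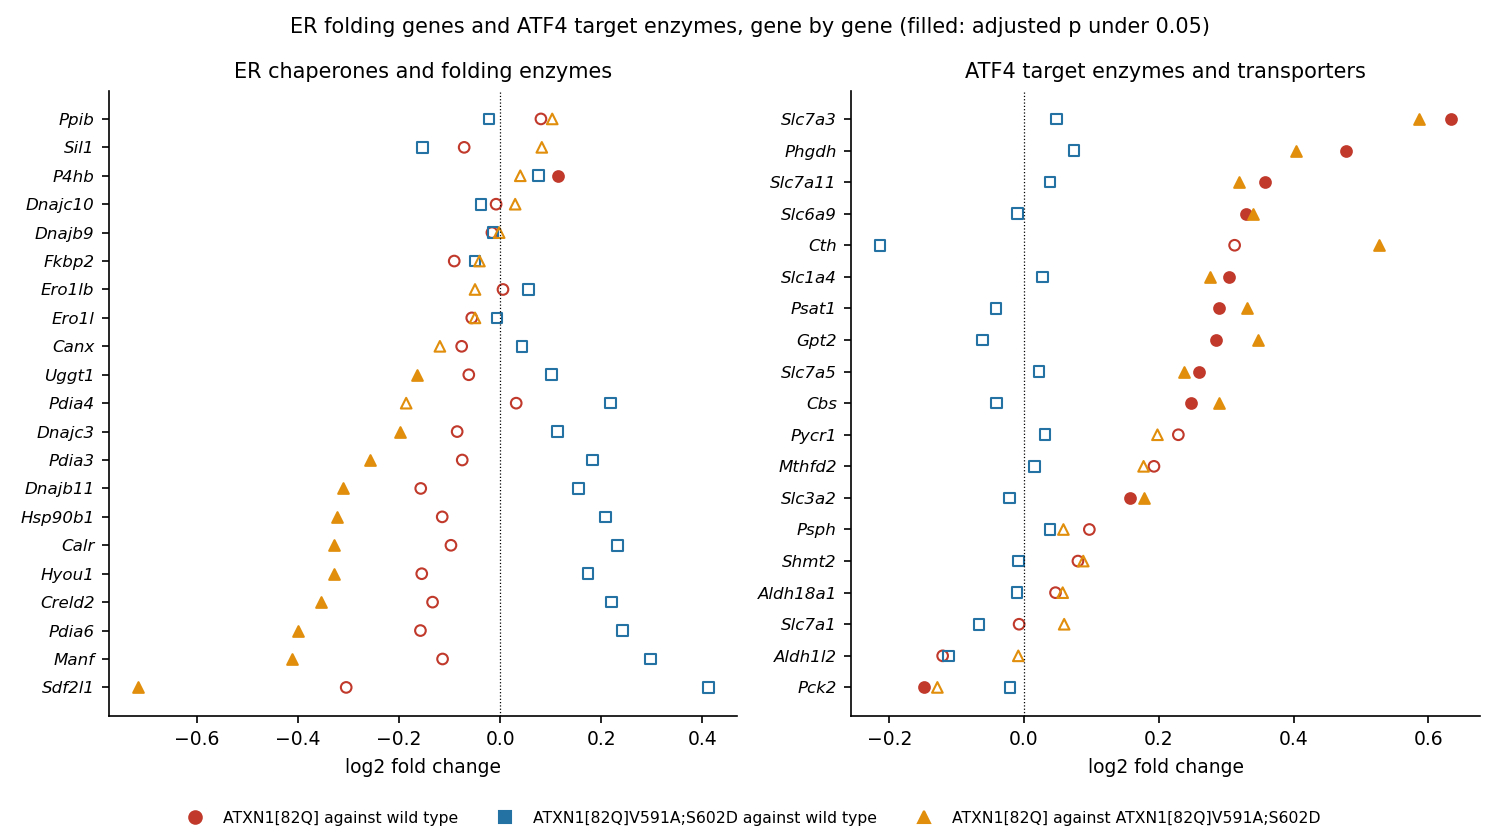
Log2 fold changes (x axis) of the 21 ER chaperones and folding enzymes and the 19 ATF4 target enzymes and transporters (y axis) in the 3 comparisons; filled marks have an adjusted p under 0.05. In ATXN1[82Q] against ATXN1[82Q]V591A;S602D, 11 chaperone genes are lower and 11 enzyme and transporter genes higher.

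The 19 ATF4 target enzymes and transporters included 10 that rose and 1 that fell in ATXN1[82Q] against wild type, with a median of 0.25, beside 16.6% and 14.9% of all genes. Against ATXN1[82Q]V591A;S602D 11 were higher and 0 lower, with a median of 0.24, beside 13.5% and 14.6% of all, and both comparisons use the same 5 ATXN1[82Q] libraries. In the substituted genotype against wild type 0 were higher and 0 lower by edgeR, beside 0.208% and 1.2% of all, with a median of -0.0096. At p under 0.05 before adjustment 0 were higher and 1 lower there, beside 5.45% and 6.28% of all. Phgdh, the first enzyme of serine synthesis, averaged 71.1 ± 3.39 CPM in ATXN1[82Q], beside 51.0 ± 4.40 in wild type and 53.7 ± 2.69 in the substituted genotype (SD, n = 5), with an edgeR adjusted p of 4.71e-06 against wild type. Slc7a11, the cystine-glutamate exchanger, averaged 108.8 ± 3.21 CPM in ATXN1[82Q], beside 84.9 ± 5.00 and 87.2 ± 4.46. Slc6a9, a glycine transporter (log2 0.33), and Slc7a3, a cationic amino acid transporter (0.63), also rose against wild type. Phgdh, Slc7a11 and Slc6a9 are known to be abundant in astrocytes. Beside these, 4 of 8 markers of Bergmann glia and astrocytes were higher and 2 lower in ATXN1[82Q] against wild type, and the markers summed to 3671 to 3858 CPM in the wild-type libraries, 3762 to 4250 in ATXN1[82Q] and 3662 to 3875 in the substituted genotype; their part was not tested. In libraries with Ttr under 100 CPM the counts of higher genes were 8 against wild type and 5 against the substituted genotype, where 9.85% and 3.83% of all genes were called higher. Of 12 tRNA synthetase genes that ATF4 raises, 0 passed against wild type with either transgene by edgeR. The shares of all genes called higher and lower were 16.6% and 14.9% in ATXN1[82Q] and 0.208% and 1.2% in the substituted genotype. At p under 0.05 before adjustment, 2 were higher and 1 lower in ATXN1[82Q], beside 22.2% and 19.8% of all genes. In the substituted genotype 0 were, beside 5.45% and 6.28% of all. Between the transgenic genotypes 2 were higher and 0 lower in ATXN1[82Q], beside 13.5% and 14.6% of all.

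Among 16 regulatory targets of ATF4 and CHOP, 6 rose and 2 fell in ATXN1[82Q] against wild type, beside 16.6% and 14.9% of all genes. Nupr1, a small stress-induced nuclear protein gene, rose from 6.87 ± 1.11 to 10.5 ± 1.07 CPM (log2 0.61, edgeR adjusted p = 0.000383), the cell death genes Bbc3 (PUMA) and Bcl2l11 (BIM) by 0.55 and 0.44, and Nfe2l2, which encodes the antioxidant factor NRF2, by 0.37. Bbc3 was also higher in the substituted genotype than in wild type (0.40, adjusted p = 0.0129). Of 18 bZIP genes whose products can pair with ATF or C/EBP factors, 3 rose and 2 fell in ATXN1[82Q], near the 16.6% and 14.9% of all genes. Cebpa rose from 5.89 ± 1.13 to 10.4 ± 1.48 CPM (log2 0.82, adjusted p = 0.000136), Jun rose by 0.60 and Jund by 0.48, while Atf2 fell by 0.17 on the log2 scale. Jund was also higher in the substituted genotype than in wild type (0.34, adjusted p = 0.0331). These were the 2 other pathway genes called in that comparison. The Bbc3 call held in each alternative run (adjusted p up to 0.0432), while the Jund call was lost without substituted replicate 1, 2 or 4 or wild-type replicate 2, 3, 4 or 5 (adjusted p up to 0.116), with the replicate number in the model (0.0804) and among libraries with Ttr under 100 CPM (0.0702).

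**Figure D5:**
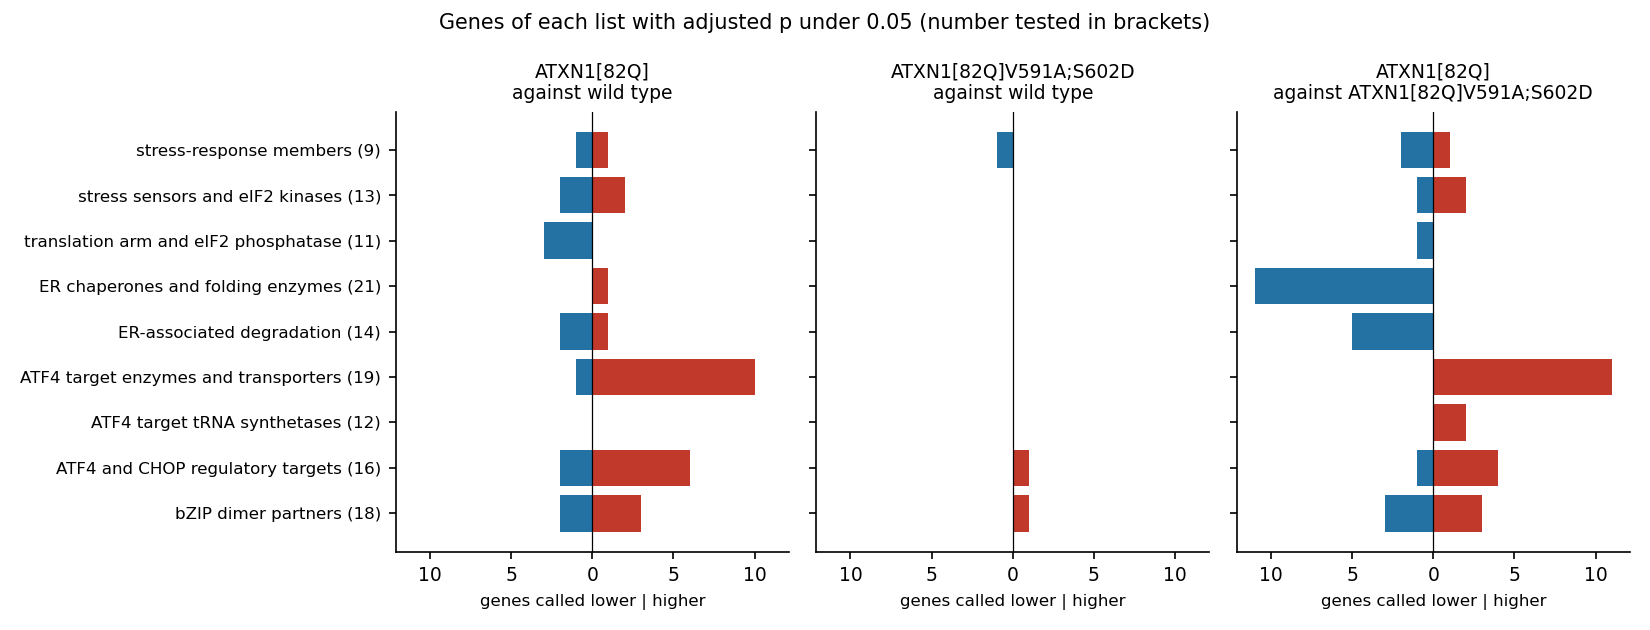
Numbers of tested genes called higher or lower (adjusted p under 0.05, x axis) in each pathway list (y axis) for the 3 comparisons. The ATF4 target enzymes and transporters have 10 genes higher in ATXN1[82Q] against wild type, and the ER chaperones have 11 lower in ATXN1[82Q] against ATXN1[82Q]V591A;S602D.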

How the data were processed

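Cerebellar RNA was sequenced in 15 libraries. Per the labels' protocols, double-stranded cDNA was amplified with poly(A) and random priming. Per the submitters' processing notes, STAR 2.5.3a, HTSeq, DESeq2 and mm10 were used; the annotation release, strand setting and counting mode were not given in the sources used here. The deposited values are whole-number counts per gene, not normalised by the authors. Summary entries that name no gene (no feature, 16.8% to 18.2% of the total, ambiguous 1.18% to 1.25%, not unique 12.8% to 14.6%) were left out.

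Counts were fitted for all genes passing filterByExpr (minimum count 10) with edgeR 4.0.16 in R 4.3.3 (TMM, glmQLFit and glmQLFTest, a mean per genotype, all 15 libraries), with Benjamini-Hochberg adjustment over 15843 genes and a threshold of 0.05. Alternatives were RLE scaling, DESeq2 1.42.0, no filter, only the 2 genotypes compared, the replicate number as a block, Ttr or Xist as a covariate, the libraries below 100 CPM of Ttr alone, and each library left out. None of the 30 pairs of libraries of the same genotype agreed within sampling noise. The fits and the permutation test of pairs were tested on simulated data. Exon lengths and positions come from GENCODE M21 on GRCm38.

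The 9 genes, the lists and the tests were chosen with earlier results of these data known. From each list, the text names up to 4 called genes with the largest absolute log2 fold change in ATXN1[82Q] against wild type and a mean log2 CPM of at least 1, with Eif2ak3, Ern1 and Atf6 always; for likeness, the 3 nearest genes were sought for each member. Ppp1r15a, Ppp1r15b, Calr, Hsp90b1 and Hyou1 fall outside this rule. Other lists of markers (granule cells, interneurons, oligodendrocytes, endothelial cells, brainstem neurons) had 0 and 6, 2 and 1, 7 and 0, 2 and 0, and 2 and 0 genes higher and lower in ATXN1[82Q] against wild type.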

Additional observations from a re-analysis of the deposited data

Results flagged for a closer look

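Herpud1 stood at 100.9 CPM in ATXN1[82Q]V591A;S602D replicate 5, while the other 4 libraries of that genotype lay between 88.9 and 90.1 CPM, so its gap to the nearest was 0.90 of the whole range. Xbp1 stood at 190.6 CPM in the same library, with the others between 163.8 and 171.2 CPM and a gap of 0.72 of the range. These were the 2 values past Dixon's 95% critical value among the 27 groups of 5 libraries examined (9 genes in 3 genotypes), and chance flags about 1 in 20 groups. The Herpud1 call between the transgenic genotypes held without this library, and the Hspa5 call did not (edgeR adjusted p = 0.0662).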

How the results depend on the processing

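Of the values for single members, 438 kept their direction and side of the threshold, 35 kept their direction but were no longer called, 9 became called and 4 changed sign. The sign changes were all in ATXN1[82Q] against ATXN1[82Q]V591A;S602D in values that did not pass: Ddit3 at -0.0076, -0.0088 and -0.011 without ATXN1[82Q]V591A;S602D replicate 1 and ATXN1[82Q] replicates 1 and 3, and Chac1 at -0.034 without ATXN1[82Q] replicate 5. Leaving out single libraries gave -0.011 to 0.075 for Ddit3 and -0.034 to 0.24 for Chac1 there. With single libraries left out, 1 to 3 members were called in ATXN1[82Q] against wild type. In ATXN1[82Q]V591A;S602D against wild type 0 to 0 were called, and between the transgenic genotypes 1 to 4. The other pathway genes called were 26 to 37, 1 to 4 and 28 to 45. The shares of all genes called in these fits were 24.5% to 33.7%, 0.853% to 1.92% and 22% to 29.2%. The ER chaperones called lower between the transgenic genotypes were 4 to 12, beside 11.5% to 15.4% of all genes. Among libraries with Ttr under 100 CPM (fewer libraries), the members called were 1, 0 and 1, the other pathway genes 22 and 10 in the comparisons of ATXN1[82Q] with wild type and with ATXN1[82Q]V591A;S602D, the ATF4 target enzymes higher 5 and the chaperones lower 1 in the latter, while the share of all genes called was 20.4% and 9.53% there in place of 31.5% and 28.1%. Atf4 in ATXN1[82Q]V591A;S602D against wild type, the 1 member called there, gave 0 with no filter, with only 2 genotypes, with Xist as a covariate and with the replicate block. The list counts of enzymes and chaperones, and Bbc3 and Jund in the substituted genotype, were varied after seeing the data, and the cause of these shifts was not tested.

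The replicate numbers gave no clear sign of pairing: 4 of the 15 same-number pairs correlated over 0.1 (median -0.11). No different-number pairs were set beside them, so this check cannot exclude a pairing. With the replicate number as a block, 1 other pathway gene was called in ATXN1[82Q]V591A;S602D against wild type in place of 2, since Jund lost its call (0.0804), and Trib3 lost and Xbp1 gained its call between the transgenic genotypes (edgeR adjusted p = 0.0639 and 0.0336). Depth limits Trib3, Atf3 and Chac1 most, with 22 to 205 reads a library.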
